A study of Mus musculus with 16 samples.

Results

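A set of 9 genes covers the core machinery of acetylcholine transmission outside the nicotinic receptors, and their transcripts were followed in whole mouse brain after adolescent nicotine and ethanol drinking. They are Chat, Slc18a3, Slc5a7 and Ache, which make, store, recover and break down the transmitter, and the muscarinic receptor genes Chrm1, Chrm2, Chrm3, Chrm4 and Chrm5. The genes were taken by their symbols, and all 9 were found in the counts table, which holds 24062 genes, and in the FPKM table, which holds 23991.

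The mice were female C57BL/6J, an inbred strain, and were killed at postnatal day 45, when the whole brain with the cerebellum was taken as 1 RNA-seq library per mouse. WW mice had tap water only. For NW mice the overnight bottles, on for 22 h per day, held nicotine at 200 µg/ml, and they had water in the dark sessions. Water-Ethanol mice had water in the overnight bottles and 20% v/v ethanol in 2 h dark sessions, with a last session of 4 h that ended at dissection, and NE mice had both nicotine and ethanol. Each group had 4 mice, 16 in all, and every mouse had the same bottle changes.

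Neurons that use acetylcholine build it from choline and acetyl-CoA with choline acetyltransferase, load it into vesicles, and take the choline back up after the transmitter has been hydrolysed in the cleft. Muscarinic receptors are G protein-coupled receptors for the same transmitter. The subtypes encoded by Chrm1, Chrm3 and Chrm5 signal through Gq and phospholipase C, and those encoded by Chrm2 and Chrm4 through Gi, which lowers cyclic AMP. In the forebrain the cholinergic cells are basal forebrain projection neurons and striatal interneurons, and in the brainstem and spinal cord they include motor neurons, so these cells are a small part of a whole-brain sample. Nicotine acts on the other class of acetylcholine receptor.

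Chat and Slc18a3 share a locus, and the count table shows how closely. On GRCm38, Chat spanned chr14:32408203-32465909 on the minus strand with 16 exons. Slc18a3, the vesicular acetylcholine transporter, has a single exon at chr14:32462437-32464850 on the same strand, inside intron 1 of Chat, which runs from 32460914 to 32465806 and is 4893 bases long. The annotated exons of the pair did not overlap, so a read within an exon can be assigned to only 1 of them. The assignment does not show which transcript a read came from, as Slc18a3 lies in an intron of Chat on the same strand. The FPKM table assigned both to the same assembled locus. Slc5a7, the high-affinity choline transporter, lies at chr17:54273590-54299034 on the minus strand and has 9 exons.

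The stretches upstream of the annotated starts are shown because these 3 genes are the usual definition of a cholinergic neuron, and because the first pair lies so close together. They come from RefSeq (GRCm38.p6), whose promoter table held 8 of the 9 genes; Chrm1 was not matched. All are on the minus strand and read 5′ to 3′, at chr14:32465990-32466159 for Chat, chr14:32464851-32465100 for Slc18a3 and chr17:54299035-54299284 for Slc5a7. The Chat stretch holds 170 bases and stops short of the start of Chat at 32465909, whereas those of Slc18a3 and Slc5a7 hold 250 bases. Capitals mark the motifs found on either strand: TGACG, the core of the cAMP response element, the GC box GGGCGG, and the E-box CAGCTG.
Chat: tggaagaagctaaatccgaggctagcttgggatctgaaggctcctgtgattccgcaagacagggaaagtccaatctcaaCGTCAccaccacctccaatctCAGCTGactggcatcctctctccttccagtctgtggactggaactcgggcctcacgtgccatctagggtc
Slc18a3: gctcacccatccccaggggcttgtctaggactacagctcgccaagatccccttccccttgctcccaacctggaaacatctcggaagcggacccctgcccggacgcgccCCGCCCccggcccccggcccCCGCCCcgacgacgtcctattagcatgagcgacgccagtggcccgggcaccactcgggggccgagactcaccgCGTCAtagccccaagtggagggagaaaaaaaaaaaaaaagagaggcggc
Slc5a7: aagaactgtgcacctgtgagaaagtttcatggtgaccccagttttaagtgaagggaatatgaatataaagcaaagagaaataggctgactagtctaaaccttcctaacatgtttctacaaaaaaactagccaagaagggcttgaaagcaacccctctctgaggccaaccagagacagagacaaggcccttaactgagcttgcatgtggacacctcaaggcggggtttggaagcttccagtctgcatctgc

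TGACG was present in the Chat and Slc18a3 windows and in 17.8% of the 32851 promoters searched. GGGCGG was present in 4 of the 8 windows, those of Slc18a3, Ache, Chrm2 and Chrm4, against 32.7% of all promoters. CAGCTG was found only for Chat among the 8, against 13% of all promoters, and the homeodomain core TAATTA only for Chrm5, against 4.84%. The full element TGACGTCA, held by 1.55% of promoters, and TTCAGCACC, the left part of the neuron-restrictive silencer element, held by 0.301%, were not found in any of the 8. GC content of the 250 bases differed widely, from 37.6% for Chrm5 and 45.6% for Slc5a7 to 70% for Chrm4 and 73.6% for Ache, around a median of 52.4% over all promoters.

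Libraries held 27100352 to 32880979 counted reads, with no identical pair. WW mouse 21 and NW mouse 10 stood apart: the summed CPM (read counts scaled to a common library size after TMM adjustment) of 6 cerebellar markers were 256 and 350, against 716 to 850 in the other 14 mice, and those of 5 hindbrain and spinal markers were 5.79 and 4.33, against 11.9 to 27.7. Neuronal and glial marker lists were present in every library, and 1 hindbrain marker, Hoxb8, had no read in 6 mice. Values are therefore given with and without these 2 mice where a result rests on them. Summed skeletal muscle markers were at 30.6 CPM in NW mouse 7, against 4.74 to 7.80 in the other 15 mice, and pituitary markers at 14.1 CPM in NW mouse 10, against 0 to 2.05. Olfactory bulb markers summed to 62.1 to 95 CPM in NW and 95.1 to 99.1 in WW mice. These ranges were barely apart, with 95.02 in NW mouse 10 and 95.11 in WW mouse 20. The exact permutation p for the score was 0.0286, the smallest that 4 mice against 4 can give. It was not adjusted for the number of marker lists and groups compared. Of the 5 markers, 4 had a lower mean in NW mice and Th did not, and each overlapped WW. The part of these lists in the results was not tested. In RNA from whole brain, fewer cells of a type and less RNA per cell cannot be told apart.

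The levels spanned a wide range when compared per transcript length. Acetylcholinesterase was the most abundant transcript, the receptors Chrm1, Chrm3, Chrm4 and Chrm2 followed, and the transcripts that mark cholinergic cells were low. Mean FPKM over 16 mice was 35.4 ± 2.22 (SD) for Ache, 23.1 ± 1.99 for Chrm1, 13.5 ± 0.985 for Chrm3, 10.5 ± 1.02 for Chrm4 and 6.63 ± 0.465 for Chrm2. It was 3.39 ± 0.441 for Slc5a7, 1.75 ± 0.302 for Slc18a3, 1.70 ± 0.235 for Chat and 1.11 ± 0.197 for Chrm5. Ache stood above 89.8% of all genes in the table and Chrm5 above 44.7%.

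From Ache down to Slc18a3, each gene exceeded the next in 16 of 16 mice and their ranges did not overlap. The last steps were less clear. Slc18a3 exceeded Chat in 11 of 16 mice, and their FPKM ranges, 1.13 to 2.34 and 1.31 to 2.10, overlapped. With counts divided by exon length the order of this pair turned, with 1.60 CPM per kb for Chat and 1.59 for Slc18a3. Chat exceeded Chrm5 in 14 of 16 mice, again with overlapping ranges.

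**Figure D1:**
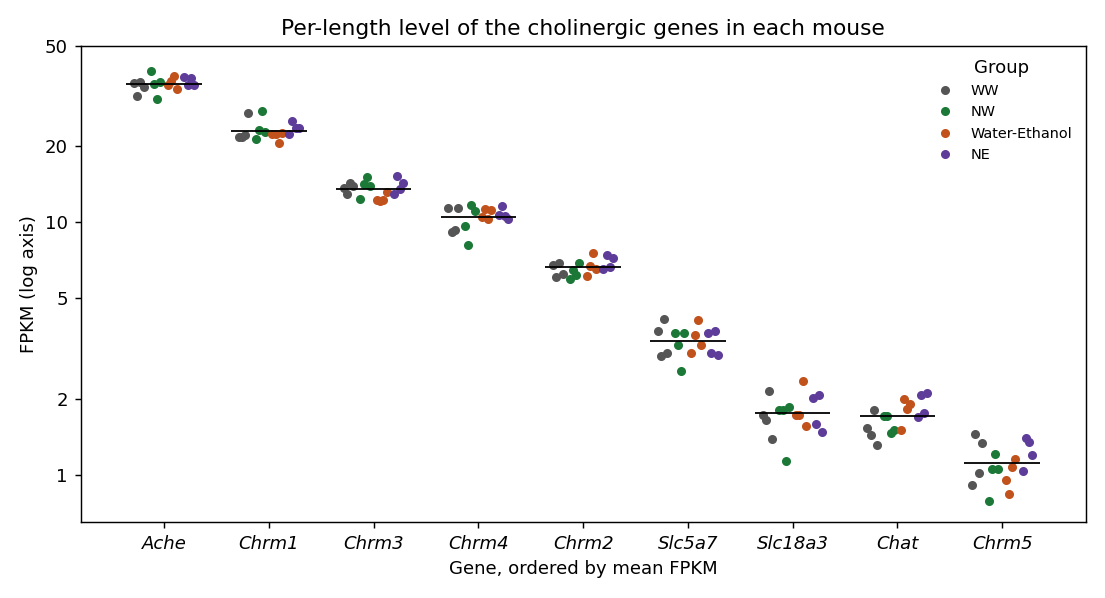
FPKM of the 9 genes in each of the 16 mice on a log axis, coloured by group, with a line at the mean over all mice. The first 6 steps down the order separate every mouse, whereas Slc18a3, Chat and Chrm5 overlap.

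Among the 5 receptors, the order was Chrm1, Chrm3, Chrm4, Chrm2 and Chrm5 in every group by mean FPKM. Chrm1, the main postsynaptic subtype of cortex and hippocampus, made up 42.1% ± 1.52 (SD, n = 16) of summed muscarinic FPKM. Chrm3 made up 24.6% ± 1.11, Chrm4, abundant in striatal projection neurons, 19.2% ± 1.5, Chrm2, an autoreceptor on cholinergic terminals, 12.1% ± 0.989, and Chrm5, known from midbrain dopamine neurons, 2.02% ± 0.319. The Gq-coupled receptors therefore held 68.7% ± 1.88 and the Gi-coupled receptors 31.3% ± 1.88. The Gq share ran from 66.7 to 70.6% for WW, 67.7 to 72.6% for NW, 65.5 to 68.1% for Water-Ethanol and 67.8 to 69.2% for NE mice, so that every group overlapped WW.

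The treated groups were each compared with WW to ask whether nicotine, ethanol or both shifted these transcripts. The 3 comparisons share the WW mice and are not independent. None of the 9 genes passed an adjusted p-value of 0.05 in edgeR's quasi-likelihood test in NW, Water-Ethanol or NE mice, where 0, 0.457 and 0.313% of all genes tested did. At an unadjusted p under 0.05 the counts were 0 of 9 for NW, 1 of 9 for Water-Ethanol and 1 of 9 for NE mice, against 8.44, 19.3 and 17.5% of all genes. No gene separated a treated group from WW without overlap in CPM, which 5.96, 10.8 and 10.7% of all genes did in NW, Water-Ethanol and NE mice. By limma on FPKM the counts of adjusted calls were also 0. DESeq2 gave no adjusted p for Chat, Slc18a3 and Chrm5 in NW and NE mice or for Chrm5 in Water-Ethanol mice, and no call among the others. The median log2 difference of the 9 genes was -0.03 for NW, 0.02 for Water-Ethanol and 0.06 for NE mice, beside 0.01, 0.00 and 0.00 for all genes tested.

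Over all 16 mice, the ethanol effect (mean of both ethanol groups minus mean of both water groups), the nicotine effect and their interaction also gave 0 of 9 adjusted calls in edgeR, against 4.5, 0 and 0% of all genes. Each had 1 of 9 genes at an unadjusted p under 0.05, against 22.9, 10.3 and 6.76% of all genes.

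**Figure D2:**
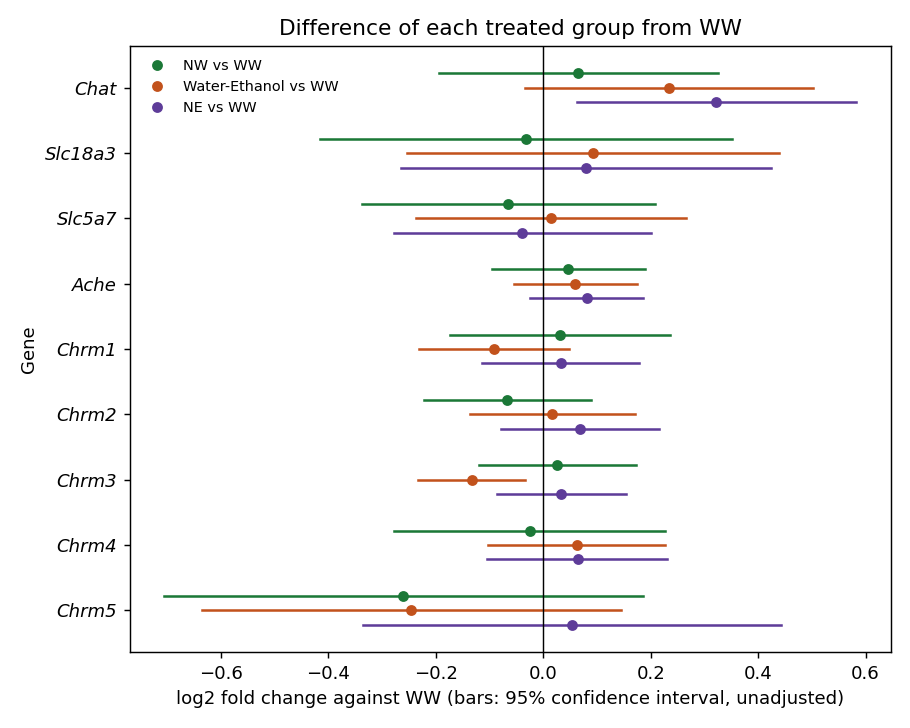
Log2 fold change of each gene in NW, Water-Ethanol and NE mice against WW with its unadjusted 95% confidence interval from edgeR. Only the intervals of Chat in NE and Chrm3 in Water-Ethanol mice lie to 1 side of 0.

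Chat, the enzyme that makes acetylcholine, had the largest shift in mean among the presynaptic genes. Its CPM, given here and for the other genes in order of mouse number, was 3.99, 3.83, 4.77 and 3.45 in WW mice 18 to 21 and 4.34, 4.5, 3.88 and 4.04 in NW mice 7, 8, 10 and 11. In Water-Ethanol mice 13 to 16 it was 3.92, 5.18, 4.82 and 4.93, and in NE mice 2 to 5 it was 4.41, 5.39, 4.81 and 5.48. In both ethanol groups 3 of 4 mice lay above every WW mouse. Of the remaining ones, Water-Ethanol mouse 13 lay below WW mice 18 and 20, and NE mouse 2 below WW mouse 20.

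The NE difference for Chat was 0.32 ± 0.119 (SE) on the log2 scale, with a 95% interval of 0.063 to 0.582 and an adjusted p of 0.197 by edgeR. The exact two-sided permutation test gave p = 0.0571, where 4 mice against 4 cannot give less than 0.0286, and over the 27 exact tests of 9 genes and 3 groups the lowest adjusted p was 0.771. For Water-Ethanol mice the difference was 0.23 ± 0.124 (adjusted p = 0.32 by edgeR). The ethanol effect over all mice was 0.24 ± 0.0803, a fold of 1.18 with an interval of 1.05 to 1.33 (adjusted p = 0.0861 by edgeR). Without WW mouse 21 and NW mouse 10 it was 0.19 (adjusted p = 0.154), and over 25 fits it ran from 0.16 to 0.29, with adjusted p from 0.0574 to 0.157. Chat did not pass in any of them. These values rested on 97 to 160 reads per mouse, and the spread between mice of a group (10.8%) was little above the counting error (8.69%).

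For Slc18a3, nested in Chat, mice within a group differed more than the group means did. Its CPM was 3.70, 3.61, 4.73 and 2.95 for WW, 3.93, 3.98, 2.55 and 4.13 for NW, 3.69, 3.83, 5.07 and 3.38 for Water-Ethanol, and 4.48, 3.50, 4.54 and 3.29 for NE mice. The groups overlapped throughout, and the spread within groups (18.7%) was the largest of the 9 genes and exceeded the counting error (9.37%). The log2 differences from WW were -0.03 ± 0.175 for NW, 0.09 ± 0.159 for Water-Ethanol and 0.08 ± 0.158 for NE mice, and their 95% intervals reached from -0.415 to 0.438. The ethanol effect on Slc18a3 was 0.10 ± 0.121 with an interval of -0.154 to 0.353, which contains the value for Chat, and over 25 fits it ran from -0.016 to 0.166. Whether the 2 genes differ in their response was not tested.

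Slc5a7, which recovers choline and limits the rate of synthesis, had 16.8 ± 2.09 CPM (SD, n = 16). Its group means were 17.0 ± 2.82 for WW, 16.2 ± 2.31 for NW, 17.2 ± 2.28 for Water-Ethanol and 16.6 ± 1.63 for NE mice. No difference from WW exceeded 0.065 on the log2 scale in size, and the edgeR intervals ran from -0.338 to 0.265 over the 3 comparisons.

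Ache, the hydrolase, lies at chr5:137288254-137294466 on the plus strand. With 1777 to 2526 reads per mouse and a spread of 6.22% within groups, the lowest of the 9, it varied least between mice of a group. Its CPM was 71.0 ± 4.06 for WW, 73.2 ± 6.17 for NW, 73.8 ± 4.43 for Water-Ethanol and 74.9 ± 2.97 for NE mice (SD, n = 4). The NE difference was 0.08 ± 0.048, a fold of 1.06 with an interval of 0.984 to 1.14 (adjusted p = 0.415 by edgeR), and it was 0.042 without WW mouse 19. The highest value of all 16 mice, 80.7 CPM, was that of NW mouse 7, which also had the highest summed CPM of skeletal muscle markers.

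**Figure D3:**
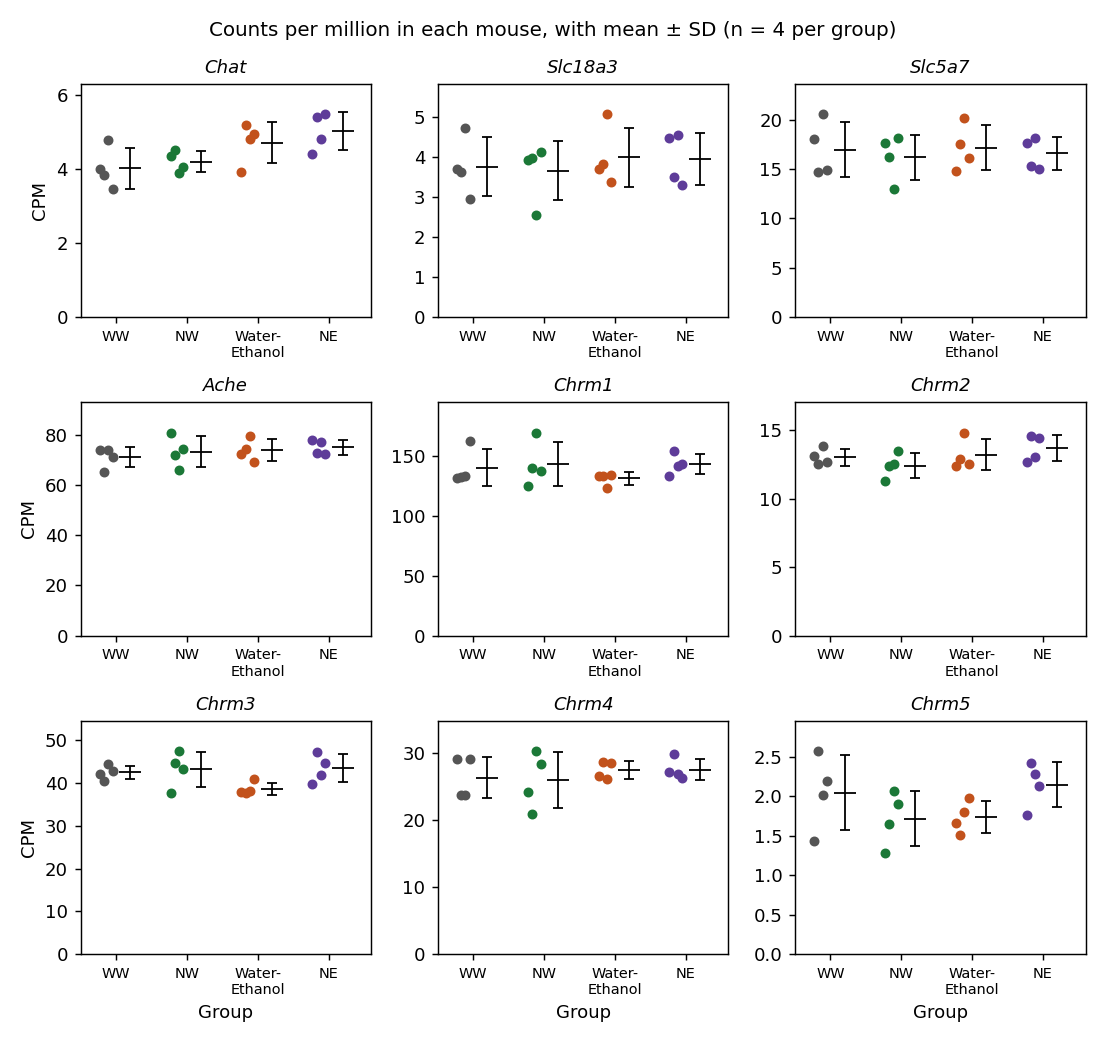
CPM of the 9 genes in each mouse (points) with the group mean and SD (bars) for the 4 groups, 4 mice each, on axes that start at 0. Chat is highest in NE mice (4.41 to 5.48) and Chrm3 lowest in Water-Ethanol mice (37.6 to 40.8), and each overlaps WW in 1 mouse.

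The receptors each have a single coding exon in GENCODE, so reads over the coding part do not depend on splicing. Chrm1 spans chr19:8664005-8683602 on the plus strand and had the most reads, 3540 to 4568 per mouse. Its CPM was 131, 132, 133 and 162 for WW, 125, 140, 169 and 137 for NW, 133, 133, 123 and 134 for Water-Ethanol, and 133, 154, 141 and 143 for NE mice. WW mouse 21 and NW mouse 10 were the highest of their groups and of all 16 mice. The log2 differences from WW were 0.03 ± 0.0936 for NW, -0.09 ± 0.0644 for Water-Ethanol and 0.03 ± 0.0672 for NE mice. Without WW mouse 21 the Water-Ethanol difference was -0.011, and with the cerebellar score as a covariate in a fit of all 16 mice it was -0.003.

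Chrm3 (chr13:9876613-10360803, minus strand) was the only receptor with an unadjusted p under 0.05 against WW. Its CPM was 42.1, 40.4, 44.3 and 42.8 in WW and 37.6, 44.5, 47.3 and 43.2 in NW mice. In Water-Ethanol mice it was 37.9, 37.6, 38.1 and 40.8, and in NE mice 39.8, 47.2, 41.8 and 44.7. In Water-Ethanol mice, 3 of 4 lay below every WW mouse, while NE mice lay on both sides of WW.

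The Water-Ethanol difference for Chrm3 was -0.13 ± 0.0456 on the log2 scale, with an interval of -0.232 to -0.034 (adjusted p = 0.149 by edgeR). The exact permutation test gave p = 0.0571. Without WW mouse 21 it was -0.13 (adjusted p = 0.144), and over 18 fits it ran from -0.16 to -0.10 with adjusted p from 0.134 to 0.462. The NE difference was 0.03 ± 0.0553, and the interaction of nicotine and ethanol was 0.14 ± 0.09 with an adjusted p of 0.812. The nicotine effect over all mice was 0.10 ± 0.045 (adjusted p = 0.474 by edgeR).

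Markers of cortical and hippocampal excitatory neurons were read beside Chrm3. In Water-Ethanol mice the markers Tbr1, Neurod6, Slc17a7 and Lamp5 had a lower mean than in WW, 4 of 4. Of them, 2 did not overlap WW, against 10.8% of all genes in either direction. Their summed CPM was 958 to 1040 in Water-Ethanol and 1060 to 1170 in WW mice. The score differed by -0.16 on the log2 scale (exact permutation p = 0.0571). In NE mice the same 4 markers also had a lower mean than in WW, each overlapping WW, with a summed CPM of 1000 to 1150 and a score difference of -0.078 (exact permutation p = 0.257), while Chrm3 was not lower there in mean. The markers of astrocytes, oligodendrocytes and microglia were each lower in mean in Water-Ethanol mice too, 4 of 4 in each list, with score differences of -0.098, -0.168 and -0.195 (exact permutation p = 0.171, 0.114 and 0.114). The part of these markers in the Chrm3 value was not tested.

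Chrm5 (chr2:112479072-112480817, minus strand) rested on 39 to 79 reads per mouse. Its CPM was 1.43, 2.57, 2.02 and 2.20 for WW, 1.28, 1.65, 2.07 and 1.90 for NW, 1.66, 1.51, 1.80 and 1.98 for Water-Ethanol, and 1.76, 2.42, 2.29 and 2.13 for NE mice. The means of the groups given a single drug were the lower ones, and the range of WW covered every mouse except NW mouse 7. The interaction was 0.56 ± 0.253 on the log2 scale, with an interval of 0.032 to 1.094 (adjusted p = 0.718 by edgeR). A spread of 17.8% within groups stood against a counting error of 13.3%.

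For Chrm2 and Chrm4, the Gi-coupled receptors, every interval of the difference from WW included 0. Chrm2 (chr6:36388084-36524774, plus strand) had 13 ± 0.596 CPM for WW, 12.4 ± 0.896 for NW, 13.2 ± 1.11 for Water-Ethanol and 13.7 ± 0.971 for NE mice. Its exons share 79 bases with 9330158H04Rik on the other strand. Chrm4 (chr2:91922189-91929829, plus strand) had 26.4 ± 3.08, 26.0 ± 4.20, 27.5 ± 1.31 and 27.6 ± 1.57 CPM in the same order, and shares 25 exon bases with Mdk on the other strand. Over both genes the log2 differences from WW ran from -0.07 to 0.07, with edgeR intervals within -0.277 to 0.231.

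Although the groups did not separate, the mice of a group differed from each other in a patterned way. Pearson correlations of log2 CPM were computed over 16 mice after group means were removed, for all 36 pairs of the 9 genes, with permutation of mice within groups. Mice with more Slc18a3 transcript also had more Slc5a7 (r = 0.903, rho = 0.874, permutation p = 0.00042, adjusted p = 0.0122 over 36 pairs), and Slc5a7 followed Ache (r = 0.843, rho = 0.862, permutation p = 0.00068, adjusted p = 0.0122). Slc18a3 and Chrm1 were opposed (r = -0.785, rho = -0.732, permutation p = 0.00416, adjusted p = 0.0499). By rank, 4 of 36 pairs passed. Slc18a3 and Ache passed by rank only (rho = 0.756, adjusted permutation p = 0.0481). Their Pearson r was 0.745 (adjusted permutation p = 0.0571), and 0.487 without NW mouse 10 and Water-Ethanol mouse 15. Chat and Slc18a3, which share a locus, were at r = 0.281 and rho = 0.138 (permutation p = 0.329, adjusted p = 0.456). The spread of Chat within groups (10.8%) was little above its counting error (8.69%). Counting error pulls correlations towards 0, and its part in the low values of Chat was not tested.

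The first pair had r = 0.823 without the 2 mice farthest from the median of Slc18a3, the second 0.79 without those farthest in Slc5a7, and the third fell to -0.613. Without WW mouse 21 and NW mouse 10 the values were 0.848, 0.839 and -0.506, and none of the 36 pairs passed adjustment (adjusted permutation p = 0.0525 for each of the first pairs and 0.297 for the third). Without NW mouse 10 alone the count was also 0. All points share the library and the dissection of the brain.

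**Figure D4:**
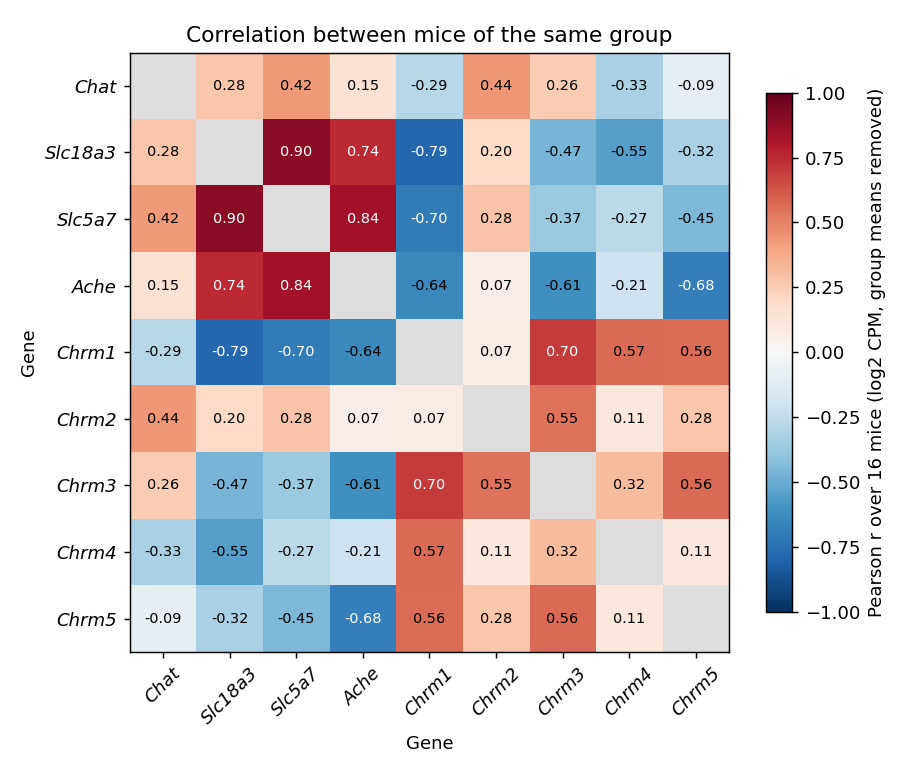
Pearson r of log2 CPM over 16 mice, with group means removed, for each pair of the 9 genes (colour and number). Slc18a3, Slc5a7 and Ache form a block of positive values of 0.74 to 0.90, with negative values against Chrm1. Among these, Slc18a3 with Ache did not pass adjustment by Pearson r, nor did Slc5a7 and Ache against Chrm1. Chat, whose spread within groups is close to its counting error, lies outside the block.

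Regional markers moved with the same genes. Of 117 relations between the 9 genes and 13 marker scores, 2 passed adjustment by Pearson r and 4 by rank, the same 2 and those of Chrm1 with the excitatory and Slc18a3 with the hindbrain score. Slc5a7 followed the hindbrain and spinal score (Hoxb3, Hoxb5, Hoxb8, Hoxc4 and Slc6a5), with r = 0.827, rho = 0.826, permutation p = 0.00063 and adjusted p = 0.0369, and all 5 markers had a positive correlation with it. Without WW mouse 21 and NW mouse 10, which are also the 2 mice farthest from the median of the score, r was 0.73 (adjusted permutation p = 0.122). The values of Slc18a3 with this score were r = 0.813, rho = 0.824, permutation p = 0.00246 and adjusted p = 0.072, and 0.666 without those mice. Ache was at r = 0.612, Chat at 0.291 and Chrm1 at -0.737, none of which passed. Without those mice the values were 0.543, -0.007 and -0.465. With the cerebellar score, Chrm1 was at r = -0.833 (adjusted permutation p = 0.324), and at 0.101 without those mice.

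Chrm3 followed the score of the cortical and hippocampal excitatory markers (r = 0.854, rho = 0.803, permutation p = 0.00053, adjusted p = 0.0369), and all 4 markers had a positive correlation with it. The value was 0.847 without NW mouse 10 and Water-Ethanol mouse 15, and 0.844 without WW mouse 21 and NW mouse 10 (adjusted permutation p = 0.122). Chrm1 was at r = 0.813, rho = 0.856, permutation p = 0.00189 and adjusted p = 0.072 with the same score; r was 0.746 without the 2 farthest mice, and passed without WW mouse 21 and NW mouse 10 (r = 0.857, adjusted permutation p = 0.0421). Whether the amount of hindbrain or cortex in a sample sets these values was not tested.

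**Figure D5:**
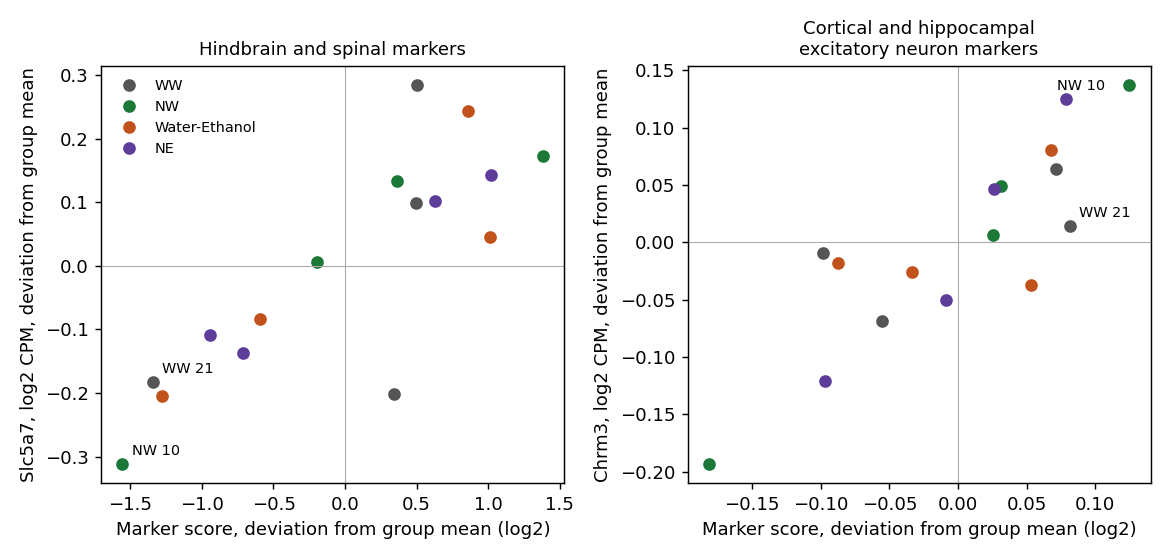
Left, log2 CPM of Slc5a7 against the hindbrain and spinal marker score; right, log2 CPM of Chrm3 against the cortical and hippocampal excitatory marker score, each as the deviation of a mouse from its group mean, with WW mouse 21 and NW mouse 10 named. Points rise together in both panels (r = 0.827 and r = 0.854 over 16 mice), and the named mice sit at the low end on the left.

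The genes whose pattern over mice was most like each of the 9 were sought among 12404 genes with at least 100 mean reads, by Pearson r with group means removed over 16 mice; the values are a description. Slc18a3 was most like Sgms2 (0.941), Slc5a7 (0.903) and Glra1 (0.895), the glycine receptor subunit of brainstem and spinal cord, and Slc5a7 was most like Slc18a3, Glra1 (0.891) and Lrrc8a (0.861). Without WW mouse 21 and NW mouse 10, r was 0.879, 0.848 and 0.783 for the 3 genes nearest to Slc18a3. For Slc5a7 it was then 0.859 with Glra1 and 0.794 with Lrrc8a. Chat, with a spread close to its counting error, had no other cholinergic gene among its nearest, which were Ppapdc3 (0.869), Trmt112 (0.817) and Zfp599 (0.80). Ache was nearest to Susd2 (0.909), Syt3 (0.893) and Nkx6-2 (0.883), a homeobox gene.

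The receptors had neighbours of their own. Chrm1 was nearest to Fam65b (0.967), Arpp21 (0.961) and 6330403A02Rik (0.958), and Chrm3 to Gpr26 (0.948), Rab6b (0.924) and Prkcb (0.924), a protein kinase C. Without WW mouse 21 and NW mouse 10, the values were 0.884, 0.851 and 0.903 for Chrm1 and 0.934, 0.915 and 0.911 for Chrm3. Chrm2 was nearest to Gtf3c4 (0.833), Apba1 (0.811) and Fitm2 (0.809), Chrm4 to Fam46a (0.862), Prdm8 (0.858) and Rspo1 (0.853), and Chrm5 to Npl (0.89), Pitpnb (0.878) and Mras (0.865). For Chrm2 the values without those 2 mice were 0.845, 0.808 and 0.836.

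Genes around the pathway were read in 4 lists in the same edgeR fits: 10 genes of cholinergic neuron identity, 12 of acetylcholine hydrolysis and choline supply, 14 of muscarinic Gq signalling and 11 of muscarinic Gi signalling. Of 9, 9, 14 and 11 tested in each comparison with WW, none passed adjustment in NW or NE mice, and in Water-Ethanol mice 1 gene of the choline list was higher and 1 gene of the Gi list lower, against 0.274% of all genes higher and 0.183% lower. Of all genes, 0.196% were higher and 0.118% lower in NE mice. The ethanol effect had 2 genes higher, with 1 further from the identity list, and 1 lower, against 2.94% of all genes higher and 1.56% lower. The list medians in Water-Ethanol mice were 0.07, 0.06, -0.04 and -0.06 on the log2 scale, beside 0.00 for all genes, and in NE mice 0.09, 0.11, 0.04 and -0.02, also beside 0.00. In NW mice they were 0.10, 0.04, 0.01 and 0.00 beside 0.01. At an unadjusted p under 0.05 by edgeR, the lists had 2, 2, 7 and 3 genes in Water-Ethanol mice, against 19.3% of all genes. The 7 of the Gq list were all lower. In NE mice the counts were 1, 3, 2 and 2 against 17.5%, and in NW mice 0, 0, 0 and 2 against 8.44%. No list was tested as a set.

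Chka, a choline kinase that draws choline into phosphatidylcholine synthesis, was the higher gene. Its CPM was 60.1, 50.6, 53.8 and 61.2 for WW, 54.0, 49.5, 64.7 and 58.1 for NW, 69.4, 66.4, 78.0 and 73.9 for Water-Ethanol, and 72.0, 63.6, 68.4 and 62.3 for NE mice. Every mouse given ethanol lay above every WW mouse, and NW mouse 10 overlapped the NE group. Of all genes, 10.8% in Water-Ethanol and 10.7% in NE mice had no overlap with WW in either direction. The Water-Ethanol difference was 0.35 ± 0.0659 (adjusted p = 0.0471 by edgeR), which passed in 8 of 18 fits. Among these 8, the fit without WW mouse 21 is counted again as that without WW mouse 21 and NW mouse 10. The difference was lost without any of WW mice 19 and 20 or Water-Ethanol mice 13, 14, 15 and 16 (adjusted p from 0.054 to 0.154). It was also lost in edgeR fits of all 16 mice with the hindbrain score as a covariate (adjusted p = 0.13) and without a score (0.0729). With the cerebellar score as a covariate it passed (adjusted p = 0.0199), as it did by DESeq2 (adjusted p = 0.000311). By limma on FPKM it was lost as well (0.113 and 0.103 with pseudocounts of 1 and 0.1). The ethanol effect of 0.29 ± 0.0549 (adjusted p = 0.00774) passed in 25 of 25 fits.

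Rgs4, which speeds the shut-off of Gi and Gq signals, was the lower gene. Its CPM was 442, 488, 477 and 476 for WW, 391, 469, 496 and 435 for NW, 369, 392, 331 and 400 for Water-Ethanol, and 362, 438, 367 and 438 for NE mice. Both ethanol groups lay below WW without overlap, whereas NW mice spread across them. The shares of all genes without overlap are those given with Chka. The Water-Ethanol difference was -0.33 ± 0.056 (adjusted p = 0.0424 by edgeR), which passed in 8 of 18 fits and was lost without the same 6 mice (adjusted p from 0.054 to 0.145). The same 4 other settings also lost it. As for Chka, the fit without WW mouse 21 is counted again among the 8. In all 16 mice by edgeR the adjusted p was 0.14 with the hindbrain score and 0.0777 without a score, and by limma it was 0.114 and 0.103. The fit of all 16 mice with the cerebellar score passed (adjusted p = 0.0487 by edgeR), as did DESeq2 (adjusted p = 1.9e-05). The ethanol effect was -0.25 ± 0.0545 (adjusted p = 0.0172) and passed in 25 of 25 fits. The summed CPM of the excitatory neuron markers was also lower in Water-Ethanol mice, as given with Chrm3, and their part in this value was not tested.

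Zic4, a zinc finger transcription factor, was higher in the ethanol effect by 0.34 ± 0.0867 (adjusted p = 0.0343 by edgeR), which held in 15 of 25 fits. Its CPM was 12.6, 12.5, 13.3 and 8.28 for WW, 14.8, 13, 9.84 and 13.7 for NW, 16.4, 15, 16 and 15.6 for Water-Ethanol, and 16.5, 13.8, 14.7 and 15.9 for NE mice. Zic4 is also expressed in the cerebellum, and its lowest values were in WW mouse 21 and NW mouse 10, the mice with few cerebellar transcripts. Without them the effect was 0.22 (adjusted p = 0.0163), and with the cerebellar score as a covariate 0.23 (adjusted p = 0.00933). It was lost without any of NW mouse 8, Water-Ethanol mice 13, 15 and 16, and NE mice 2, 4 and 5 (adjusted p from 0.057 to 0.0826), with the hindbrain score as a covariate (adjusted p = 0.0586 by edgeR) and by limma on FPKM (0.0548 and 0.0559).

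The remaining genes named by the smallest unadjusted p of their list did not pass in the edgeR comparison of each group with WW, although some did in other fits. In NW mice, Gnai3, a Gi alpha subunit, was at 46.3 ± 1.21 CPM against 53.5 ± 1.99 in WW. The groups did not overlap in CPM, which was so for 5.96% of all genes in either direction. The log2 difference was -0.21 ± 0.0457 (adjusted p = 0.224 by edgeR). Over 18 fits the adjusted p lay between 0.0205 and 0.604, and 4 fits passed. The fits that passed were that of DESeq2 and the edgeR fits of all 16 mice, without a score (adjusted p = 0.0348) and with the cerebellar or hindbrain score. Prima1, the membrane anchor of acetylcholinesterase, was at 0.19 ± 0.105, Plcb2, a phospholipase C, at 0.25 ± 0.13 and Zic4 at 0.14 ± 0.151. In Water-Ethanol mice, Plcb1 was at -0.16 ± 0.0388 (adjusted p = 0.0813 by edgeR), with 3 of 18 fits passing and adjusted p from 0.00909 to 0.328. Among these 3 the fit without WW mouse 21 is counted 2 times. Zic4 was at 0.44 ± 0.115 (adjusted p = 0.0858 by edgeR), with 4 of 18 fits passing and adjusted p from 0.0159 to 0.209. It passed at 0.30 without WW mouse 21 (adjusted p = 0.0226 by edgeR), a fit that is counted 2 times. With the cerebellar score as a covariate in all 16 mice it also passed at 0.30 (adjusted p = 0.038 by edgeR). The edgeR fit of all 16 mice without a score gave an adjusted p of 0.122. In NE mice, Slc44a2, a choline transporter-like protein, was at 0.21 ± 0.0499 (adjusted p = 0.0835), Rgs2 at -0.20 ± 0.0613, Rgs4 at -0.23 ± 0.0649 and Zic4 at 0.39 ± 0.124 (adjusted p from 0.118 to 0.156 for these 3). Slc44a2 and Rgs4 each passed in 1 of 18 fits, that of DESeq2 (adjusted p = 0.0182 and 0.0255).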

How the data were processed

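Whole-brain RNA-seq of 16 mice was analysed, with groups and mouse numbers taken from the labels; each mouse is a replicate. The sources differ on whether the library kit kept strand. Per the submitters' processing notes and methods, the authors trimmed reads with Trimmomatic 0.32 and aligned them with TopHat2 to mm10 (GRCm38). They deposited whole read counts per gene, not normalized, whose counting program is not given in the sources used here, and FPKM from the Cufflinks tools, which the authors scaled for length and depth.

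Counts were fitted with edgeR 4.0.16 (R 4.3.3; TMM, default filter on low counts, quasi-likelihood test, Benjamini-Hochberg over all genes tested, threshold 0.05). Each treated group was fitted with WW alone, and the ethanol effect, nicotine effect and interaction in all 16 mice. Alternatives were RLE factors, DESeq2 1.42.0, no filter, limma 3.58.1 on log2(FPKM + 1) and log2(FPKM + 0.1) for genes with a mean FPKM of at least 0.1, a fit of all mice, the cerebellar score as covariate, and leaving out each mouse. The hindbrain score as covariate and leaving out WW mouse 21 and NW mouse 10 were added after the data were seen. Fold changes on log2(FPKM + 1) understate low genes.

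Correlations used log2 CPM (prior count 0.5) and 100000 permutations within groups. A marker score is the mean centred log2 CPM (prior count 2) of its list. Intervals cover 95%. Exact tests were two-sided. Exact tests ran in scipy 1.17.1 and plots in matplotlib 3.10.9 (Python 3.11.15). Of the steps, only the edgeR fit was tested on simulated counts with known changes. The 9 genes and all lists were chosen with earlier results of these data known. From each list, genes with an adjusted p under 0.05 in any comparison and the gene with the smallest unadjusted p against WW were named, and for each of the 9 the 3 genes most like it. Positions come from the counts table and coding exons from GENCODE for GRCm38. Protein sequences were not used here. A marker of the excitatory neuron list is not reported here and was left out of its score.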

Additional observations from a re-analysis of the deposited data

Results flagged for a closer look

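Each of the 9 genes was examined in each of the 4 groups for a mouse far from the other 3, and 3 of the 36 groups held such a mouse by Dixon's 95% criterion, which chance alone meets in about 1 group in 20. Slc18a3 in NW mouse 10 was at 2.55 CPM, below 3.93 to 4.13 in the other NW mice. Chrm1 in WW mouse 21 was at 162 CPM, above 131 to 133 in the other WW mice. Chrm1 in Water-Ethanol mouse 15 was at 123 CPM, below 133 to 134 in the other mice of its group. The first and second are the mice with the lowest sums of cerebellar and hindbrain markers; the part of these in the values was not tested.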

How the results depend on the processing

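No paired analysis was possible because the groups share no replicate numbers. None of the 9 genes passed in any of 129 fits, and the smallest adjusted p was 0.0574 (edgeR), for Chat in the ethanol effect without WW mouse 20. For Water-Ethanol and NE against WW, leaving out WW mouse 21 and NW mouse 10 repeats the fit without WW mouse 21, and both are counted. DESeq2 gave no adjusted p for 10 of its values, all for Chat, Slc18a3 or Chrm5, and these are not counted. Differences near 0 changed sign. Leaving out 1 mouse at a time, the log2 difference of NW from WW ran from -0.128 to 0.101 for Slc18a3, -0.128 to 0.038 for Slc5a7, -0.006 to 0.086 for Ache, -0.067 to 0.113 for Chrm1, -0.029 to 0.085 for Chrm3 and -0.113 to 0.066 for Chrm4. For Water-Ethanol it ran from -0.044 to 0.226 for Slc18a3, -0.073 to 0.118 for Slc5a7 and -0.045 to 0.047 for Chrm2. For NE it ran from -0.018 to 0.215 for Slc18a3, -0.106 to 0.066 for Slc5a7, -0.004 to 0.111 for Chrm1, -0.007 to 0.072 for Chrm3 and -0.08 to 0.182 for Chrm5, and the interaction for Chat from -0.072 to 0.091. Without both WW mouse 21 and NW mouse 10, Slc18a3 was at 0.005 for NW, -0.006 for Water-Ethanol and -0.018 for NE mice, Chrm3 at -0.012 in NW and Slc5a7 at -0.045 in Water-Ethanol mice. With the cerebellar score as covariate, Slc18a3 was at -0.028 in Water-Ethanol and -0.03 in NE mice and Slc5a7 at -0.06 in Water-Ethanol mice; with the hindbrain score these were -0.072, -0.018 and -0.113. The cause was not tested. The count of correlated pairs, 3 of 36, was 5 on log2(FPKM + 1), 0 to 8 when 1 mouse was left out (0 without NW mouse 10, 8 without WW mouse 19) and 0 without both mice. Counting error was 8.69% for Chat and 13.3% for Chrm5, close to their spread within groups of 10.8 and 17.8%; for Slc18a3 the spread (18.7%) was well above the counting error (9.37%).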
